A study of Mus musculus with 14 samples.

Results

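Vehicle-treated tumours of mouse hosts from 2 strains were compared across all expressed genes. The libraries were chosen by their labels: the 4 from the strain written C57BI/6 mouse with vehicle (C57BI6) and the 3 from the strain written NGS mouse with vehicle (NGS), which are 7 of the 14 in the series. All 7 came from bulk tumour tissue, and polyadenylated RNA was read at its 3' end with the QuantSeq kit. The labels do not spell out the strain NGS, so no immune status was assumed for it. The tumour cell line, whether both strains carried the same tumour cells, and the animals' age and sex were not stated in the material used. Bmal1 status appears in the series' design text and in no label of a library. Nor do the labels say whether the replicates of a group came from separate animals, so p-values measure the spread between these libraries.

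Depth followed the host: the NGS libraries held 4.21 to 4.70 M counts and the C57BI6 libraries 17.6 to 19.2 M. Any processing run may follow the same split, and the host cannot be told apart from it. The first principal component, 75.4% of the variance, separated the hosts, and the second, 8.3%, set NGS replicate 1 apart from the other libraries. NGS replicate 3 alone in its group held counts of Y chromosome genes, 15 of Ddx3y and 13 of Uty, and its Xist level was 156 normalised CPM against 402 and 423. Spearman correlations across genes were 0.966 to 0.988 within a group and 0.877 to 0.895 between groups. The SD of log2 CPM between libraries had a median over well-expressed genes of 0.165 in NGS and of 0.117 in C57BI6. Levels are given as normalised CPM, counts scaled to a library total that TMM had adjusted, and fold changes as C57BI6 minus NGS on the log2 scale, with the model's standard error (SE).

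A solid tumour taken whole holds tumour cells together with the host's blood vessels, connective tissue and immune cells. T cells and natural killer (NK) cells, which depend on cytokine receptors that share the common gamma chain, can kill tumour cells and release interferon gamma. Interferon gamma is known to raise the genes that cut, load and display peptides on MHC class I, and those of chemokines that attract more lymphocytes. In bulk RNA, fewer cells of a type and less RNA per cell cannot be told apart.

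Of 16060 genes tested with edgeR's quasi-likelihood test, 3098 (19.3%) were higher and 2430 (15.1%) lower in C57BI6, 34.4% in all, at a Benjamini-Hochberg adjusted p under 0.05. Genes written as higher or lower passed this threshold, also where no p is printed. Levels of the groups did not overlap for 3715 genes with higher values in C57BI6 (23.1% of those tested) and for 2946 with lower values (18.3%). The median log2 fold change over all tested genes was 0.01. Read against those shares, 20 of 25 tested genes of MHC class I presentation and 20 of 28 of the interferon gamma response were higher in C57BI6, and 23 of 37 fibroblast and matrix genes were lower. Many members of the NK, T cell, B cell and skin lists passed the filter on low counts through 1 host alone, where they were high. Their direction was then given by the filter, so nothing is read from their shares.

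**Figure D1:**
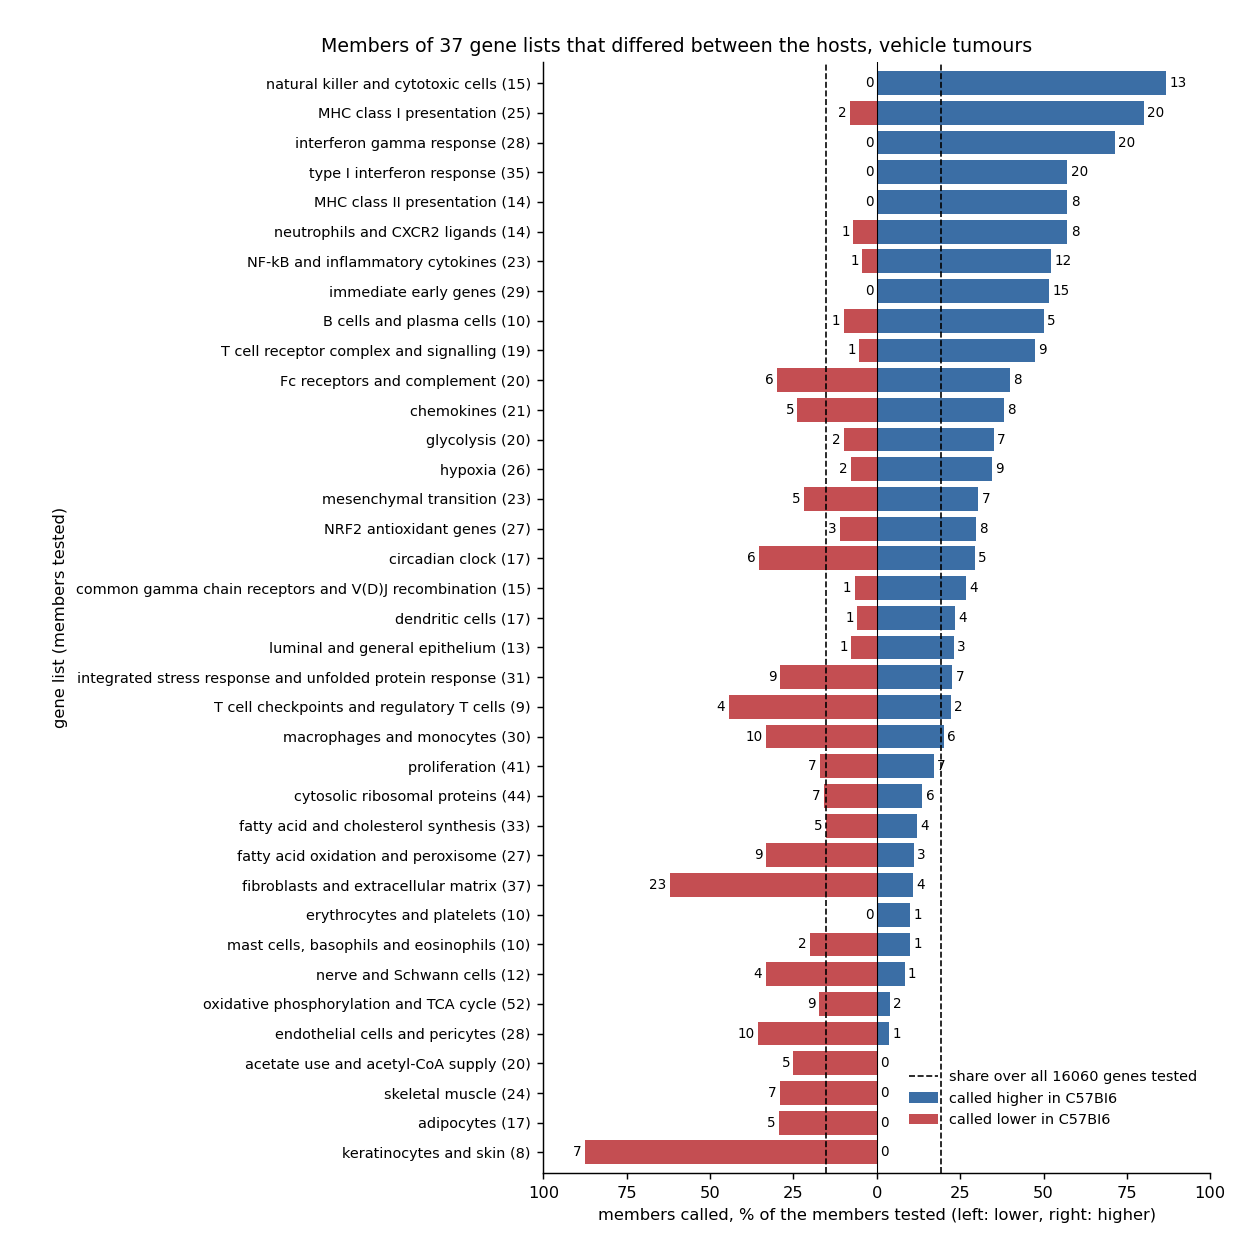
Share of the tested members of each of 37 gene lists that were called lower (left, red) or higher (right, blue) in C57BI6 vehicle tumours, in percent, with the number called beside each bar and the number tested in brackets. The dashed lines mark the shares over all 16060 genes, 15.1% and 19.3%; 20 of 25 MHC class I genes lie to the right and 23 of 37 matrix genes to the left. Shares of the NK, T cell, B cell and skin lists are set in part by the filter on low counts.

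Genes of NK and cytotoxic cells were at or near 0 counts in the NGS tumours and present at low levels in all 4 C57BI6 tumours. Of 26 genes in the list, 15 had no count in any NGS library, and 15 passed the filter on low counts, of which 13 were higher in C57BI6. Members at 0 in NGS passed it through C57BI6 alone and could hardly differ the other way, so their p-values are no support for a direction. Gzmc, a granzyme of activated killer cells, read 0 in the 3 NGS libraries and 14.7, 13.7, 16.5 and 18.1 normalised CPM in C57BI6. No count over the NGS group allows up to 3 counts, or 0.215 CPM, so Gzmc was at least 72.9-fold higher (edgeR adjusted p = 5.11e-06). Gzmb, the main granzyme of killer lymphocytes, read 0 in NGS and 1.43, 1.74, 1.61 and 2.13 in C57BI6, at least 8-fold higher. Xcl1, the ligand by which NK and CD8 T cells attract cross-presenting dendritic cells, also read 0 in NGS and lay between 1.8 and 3.68 in C57BI6, at least 13.7-fold higher.

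The inhibitory NK receptor chain Klrc1 gave 2 counts over the NGS group and levels of 6.32, 3.43, 3.89 and 3.54 normalised CPM in C57BI6, a ratio of 30.0 with an exact 95% counting interval of 8.24 to 249. Nkg7, a granule membrane protein, gave 1 NGS count and 3.46, 1.96, 3.61 and 4.61 in C57BI6, a ratio of 47.2 (8.39 to 1870). Neither gene overlapped between the hosts. For Prf1, the pore-forming perforin, the ratio was 8.58 (2.31 to 72.0), and its edgeR adjusted p of 0.0201 became 0.0633 without NGS replicate 1. The Ly49 receptor Klra4 did not follow, with 81.7, 65.7 and 48.1 normalised CPM in NGS and 45.3 to 70.1 in C57BI6 (adjusted p = 0.457). The count of 13 fell to 7 without C57BI6 replicate 1, to 8 without replicate 3 or 4, and to 5 when all libraries were thinned to equal depth.

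Genes of the CD8 coreceptor and the T cell receptor complex were at or near 0 counts in NGS and low in C57BI6. Of 28 genes in the T cell receptor and signalling list 12 had no count in NGS, and of the 19 tested 9 were higher and 1 lower in C57BI6. Cd8b1, the beta chain of the CD8 coreceptor, read 0.596, 0.661 and 0.687 normalised CPM in NGS and 6.87, 6.65, 8 and 7.86 in C57BI6. Its log2 fold change was 3.49 ± 0.30 (SE, edgeR adjusted p = 2.05e-05), with no overlap. Cd8a read 0 in NGS and 0.545 to 1.36 in C57BI6, at least 4.62-fold higher. Themis, needed for T cell development, read 0 against 1.53 to 2.06, at least 7.87-fold higher. The invariant chains of the T cell receptor complex, Cd3d and Cd3e, had no NGS count and were at least 8.39-fold and 3.71-fold higher. Their edgeR adjusted p was 0.00262 and 0.022, the latter 0.052 without NGS replicate 2. Genes of this list at 0 in NGS passed the filter on low counts through C57BI6 alone and could hardly be lower. Their p-values are therefore no support for a direction.

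Cd4, the coreceptor of helper T cells that macrophages and dendritic cells also carry, read 0.596, 1.54 and 2.75 normalised CPM in NGS and 1.32, 0.599, 1.39 and 0.591 in C57BI6. These values overlapped (log2 fold change -0.71 ± 0.58, adjusted p = 0.378). Tcf7, a transcription factor of naive and memory T cells that other tissues also express, was the list member lower in C57BI6, at 5.17, 3.09 and 6.64 against 1.7, 2.23, 2.5 and 1.59 (-1.30 ± 0.34, edgeR adjusted p = 0.0159, 0.0664 without NGS replicate 3). The list's 9 higher members became 5 without NGS replicate 2 (with 2 lower), NGS replicate 3, C57BI6 replicate 1 or C57BI6 replicate 3, and 1 at equal depth. Of 9 checkpoint and regulatory T cell genes tested of 15, 2 were higher and 4 lower (median -0.11). The lower ones numbered 2 without NGS replicate 1 or 2, and the higher ones 1 without any 1 of the NGS libraries or C57BI6 replicate 3 or 4. Among them the costimulatory receptor Icos was higher by 3.20 ± 0.86 (edgeR adjusted p = 0.0172), a call that ended without NGS replicate 1 (0.0568) or replicate 3 (0.051). Ikzf2, a transcription factor of regulatory T cells and other tissues, was lower by 1.52 on the log2 scale (-1.52 ± 0.25, adjusted p = 0.0014). Ctla4, Foxp3 and Pdcd1 were too low to test, with 0, 0 and 1 counts over the NGS group and 33, 45 and 44 over C57BI6. These counts are not scaled to depth, and the C57BI6 libraries were deeper.

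**Figure D2:**
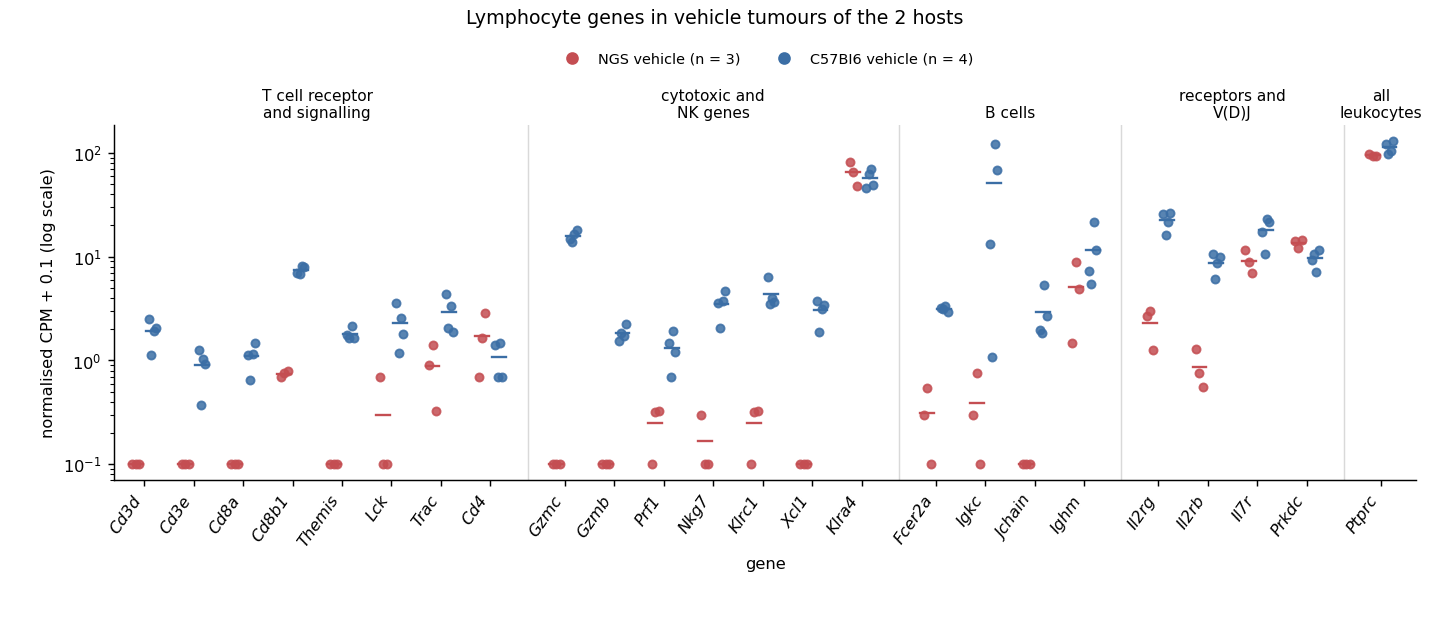
Normalised CPM on a log axis of lymphocyte genes in each vehicle library, NGS red and C57BI6 blue, with group means as bars; 0.1 was added to every value, so a count of 0 lies at 0.1. Gzmc, Gzmb and Cd3d were at 0 in the 3 NGS libraries and above 1 in the 4 C57BI6 libraries, whereas Klra4 and Cd4 overlapped and Ptprc was near 100 in both.

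Genes of B cells and plasma cells were sparse in both hosts. Of 10 tested of 22, 5 were higher and 1 lower in C57BI6. The defining marker Cd79a had no count in NGS and stayed near 0 in C57BI6. Fcer2a, the low-affinity IgE receptor CD23, gave 3 NGS counts and 2.84 to 3.28 normalised CPM in C57BI6, a ratio of 14.2 (4.81 to 69.6). Jchain, which joins secreted IgM and IgA, read 0 in NGS and 1.87, 1.74, 5.22 and 2.6 in C57BI6, at least 13.3-fold higher. Igkc, the kappa light chain constant region, varied most within the C57BI6 group, at 13, 0.981, 122 and 68.8 against 0.199, 0.661 and 0. Its log2 fold change of 7.43 ± 1.99 (edgeR adjusted p = 0.0169) lost its call without any 1 of the NGS libraries (0.0574 to 0.0603). Ighm, the IgM heavy chain, overlapped between the hosts (1.2, adjusted p = 0.15). Ebf1, a B lineage transcription factor that fibroblasts and fat also express, was lower in C57BI6, at 37.2, 35.6, 50.5 and 35.3 against 80.1, 60.2 and 100 (-1.02 ± 0.18, edgeR adjusted p = 0.00232).

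Receptors for interleukin 2 were clearly apart in level. Il2rg encodes the common gamma chain itself (mm10 chromosome X, 101264378 to 101268255, minus strand) and read 2.58, 2.87 and 1.15 normalised CPM in NGS and 25.6, 15.9, 21.3 and 26 in C57BI6. The lowest C57BI6 value lay above the highest NGS value, and the log2 fold change was 3.32 ± 0.30 (edgeR adjusted p = 2.74e-05). Il2rb, the signalling partner chain in T and NK cells, read 1.19, 0.661 and 0.458 against 10.4, 5.99, 8.56 and 9.75 (3.45 ± 0.38, adjusted p = 0.000113). The list of common gamma chain receptors and V(D)J recombination genes had 15 tested members, of which 4 were higher and 1 lower (median 0.11). Over all genes tested, 19.3% were higher and 15.1% lower. Il9r, among the higher members, had no count in NGS, passed the filter through C57BI6 alone and could hardly be lower. Without C57BI6 replicate 4 the higher members numbered 2. The lower count was 0 without NGS replicate 2 or C57BI6 replicate 2, 3 or 4. Prkdc, the catalytic subunit of the DNA-dependent protein kinase needed to join antigen receptor segments, read 14.1, 11.9 and 14.4 in NGS and 9.12, 10.6, 7 and 11.4 in C57BI6, with no overlap and an adjusted p of 0.0741. The recombinase gene Rag1 had no count in any of the 7 libraries. Ptprc, the CD45 antigen of all leukocytes, read 98.1, 93 and 94.1 in NGS and 122, 96.6, 105 and 130 in C57BI6, a log2 fold change of 0.26 ± 0.12 (edgeR adjusted p = 0.125).

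Genes that cut, transport, load and display peptides on MHC class I were mostly higher in C57BI6. Of 25 tested genes of 29, 20 were higher and 2 lower, with a median log2 fold change of 1.70, and leaving out any 1 library left 15 to 19 higher. Without NGS replicate 2 or 3 or C57BI6 replicate 1, 2 or 3, 1 gene was lower. The light chain B2m read 1480, 1520 and 1450 normalised CPM in NGS and 7580, 5880, 7870 and 9150 in C57BI6 (2.36 ± 0.14, edgeR adjusted p = 1.32e-06). Among the heavy chains, H2-K1 read 62.6, 70.7 and 98.2 in NGS and 1020, 540, 804 and 877 in C57BI6. The log2 fold change of H2-K1 was 3.39 ± 0.24 (adjusted p = 5.12e-06). H2-D1 read 396, 451 and 458 in NGS and 1540, 1120, 1520 and 1470 in C57BI6 (1.70 ± 0.13), and neither chain overlapped between hosts. The heavy chain genes are close paralogs whose reads the authors' counting could split, so the share of each is uncertain. Whether reads of the 2 strains were placed on mm10 equally well, at these or other genes, was not tested.

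A non-classical heavy chain and the peptide-loading genes were higher too. H2-T23, which encodes the Qa-1 molecule read by the NK receptor that Klrc1 belongs to, read 8.15, 11.9 and 8.93 normalised CPM in NGS and 88.6, 88.9, 72.4 and 71.4 in C57BI6 (3.06 ± 0.17, edgeR adjusted p = 8.28e-07). The peptide transporter subunit Tap1 read 10.9, 10.6 and 16.9 against 65.1, 34.2, 55.4 and 47.4 (1.98 ± 0.25). Tapbpl, a peptide editor related to tapasin, read 19.3, 16.3 and 17.6 against 113, 104, 112 and 87.9 (2.55 ± 0.13). In each of these genes every C57BI6 library lay above every NGS library. The immunoproteasome subunits Psmb8 and Psmb9 were higher by 1.86 and 1.73, and the class I transactivator Nlrc5 by 2.20 ± 0.38 (edgeR adjusted p = 0.00187). The chaperone Calr was lower, at 726, 566, 692 and 731 against 956, 1050 and 1060 (-0.59 ± 0.11, adjusted p = 0.00213).

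Most genes of the 2 interferon response lists were higher in C57BI6. Of 28 tested genes of the interferon gamma list, 20 were higher and 0 lower (median 1.73), and of 35 tested genes of the type I interferon list, 20 were higher and 0 lower (median 0.68). The counts of higher members ran from 18 to 21 and from 15 to 21 when 1 library at a time was left out. Cxcl9, the ligand of the T cell receptor CXCR3, read 4.17, 0.661 and 2.06 normalised CPM in NGS and 120, 28.7, 41.8 and 52.3 in C57BI6 (4.68 ± 0.65). Its relative Cxcl10 read 8.15, 5.29 and 12.1 against 32.5, 27.6, 33.7 and 31 (1.87 ± 0.23). C57BI6 replicate 1 stood highest for Cxcl9, and neither gene overlapped between hosts.

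Gbp3, a guanylate-binding protein of cell-autonomous defence, read 8.15, 5.07 and 6.64 normalised CPM in NGS and 24.5, 21.3, 24.5 and 21.6 in C57BI6 (1.79 ± 0.17, edgeR adjusted p = 4.66e-05). Cd274, which encodes the checkpoint ligand PD-L1, read 2.58, 1.32 and 4.35 against 19.3, 14.4, 26.8 and 25 (2.96 ± 0.35). Nos2, the inducible nitric oxide synthase, was higher by 2.33 ± 0.26. In the type I list, the nucleic acid sensor Zbp1 read 9.73, 14.1 and 8.93 against 36.5, 31, 40 and 35.7 (1.71 ± 0.18, edgeR adjusted p = 6.64e-05). Isg15, the ubiquitin-like modifier, read 37, 38.6 and 55.2 against 88.2, 91.4, 123 and 98.6 (1.21 ± 0.17, adjusted p = 0.00057). The receptor chain Ifngr1 and the factor Irf1 were not called, at -0.10 (0.595) and 0.12 (0.615).

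The 250 bases before the RefSeq start site of 4 of these genes are shown. Class I and interferon genes were higher together and are known to share a short promoter element. All 4 were taken from genes whose window held a match to the motif GAAANNGAAA. The sequences are from RefSeq on GRCm38.p6, the assembly of mm10, read 5' to 3' on the gene's strand: B2m at chr2:122147437-122147686 (plus), H2-T23 at chr17:36032702-36032951 (minus), Gbp3 at chr3:142559794-142560043 (plus) and Isg15 at chr4:156200819-156201068 (minus). Capitals mark each match to GAAANNGAAA on either strand, with overlapping matches joined.
B2m: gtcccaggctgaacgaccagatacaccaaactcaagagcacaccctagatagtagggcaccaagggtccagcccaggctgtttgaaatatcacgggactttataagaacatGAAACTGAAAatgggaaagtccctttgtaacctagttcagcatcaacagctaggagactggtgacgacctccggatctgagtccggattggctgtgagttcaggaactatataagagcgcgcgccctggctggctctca
H2-T23: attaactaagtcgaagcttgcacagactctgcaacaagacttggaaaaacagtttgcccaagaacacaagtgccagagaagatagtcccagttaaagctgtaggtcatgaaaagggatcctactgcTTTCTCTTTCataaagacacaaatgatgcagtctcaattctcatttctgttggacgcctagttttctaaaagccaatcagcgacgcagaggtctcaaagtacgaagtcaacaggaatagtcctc
Gbp3: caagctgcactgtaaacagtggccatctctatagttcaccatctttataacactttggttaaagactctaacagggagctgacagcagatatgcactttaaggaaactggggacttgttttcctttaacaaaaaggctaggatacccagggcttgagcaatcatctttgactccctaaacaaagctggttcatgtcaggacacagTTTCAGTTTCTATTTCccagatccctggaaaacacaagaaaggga
Isg15: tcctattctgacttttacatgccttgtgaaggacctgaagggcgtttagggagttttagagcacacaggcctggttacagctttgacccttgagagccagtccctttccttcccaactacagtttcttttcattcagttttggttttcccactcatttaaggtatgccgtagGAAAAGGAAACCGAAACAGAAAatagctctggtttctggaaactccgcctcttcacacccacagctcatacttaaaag
B2m and H2-T23 hold 1 match each, Gbp3 holds 2 and Isg15 holds 3. The motif was found in 936 of 27025 such windows of all genes with one (3.46%), in 100 of 1953 of the genes called higher (5.12%) and in 37 of 1599 of those called lower (2.31%). Among the genes called higher it was in 8 of 12 windows of the interferon gamma list, 9 of 16 of the type I list and 3 of 16 of the class I list. Among list members not called it was in 3 of 7, 2 of 9 and 0 of 2. In the annotation used here, GENCODE M21, H2-T23 spans 36029773 to 36032855, so part of its window, with the marked match, lies within the gene. A match describes these letters and is no evidence of binding.

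**Figure D3:**
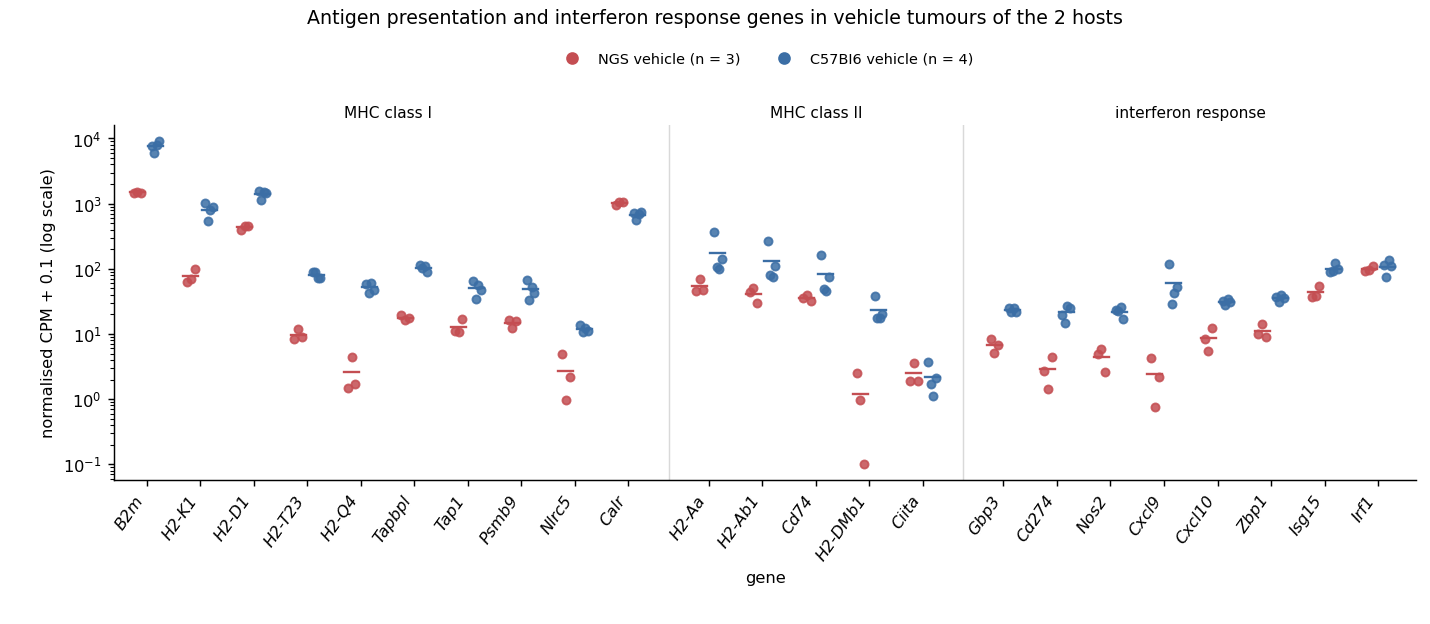
Normalised CPM on a log axis of antigen presentation and interferon-induced genes in each vehicle library, NGS red and C57BI6 blue, with group means as bars and 0.1 added to every value. All 4 C57BI6 libraries lay above the 3 NGS libraries for B2m, H2-K1, H2-T23 and Gbp3, while Ciita and Irf1 overlapped and Calr was lower.

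Genes of MHC class II differed less evenly. Of 14 tested of 16, 8 were higher and none lower (median 0.91), and 5 were higher without NGS replicate 3. H2-DMb1, part of the editor that loads class II, read 2.38, 0.882 and 0 normalised CPM in NGS and 38.7, 17.7, 17.5 and 20.4 in C57BI6 (4.36 ± 0.59, edgeR adjusted p = 0.000388). The alpha chain H2-Aa read 45.7, 68.8 and 46.9 against 361, 108, 98.9 and 143 (1.73 ± 0.44, adjusted p = 0.0127). C57BI6 replicate 1 was highest in both. The invariant chain Cd74 read 35.4, 39.5 and 32.3 against 161, 49.2, 45 and 73.9 (1.2, edgeR adjusted p = 0.0451), and lost its call without any 1 of the NGS libraries (0.0969, 0.0974 and 0.118) or C57BI6 replicate 4 (0.069). The class II transactivator Ciita was not called (-0.20, adjusted p = 0.787).

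Macrophage genes were called in both directions. Of 30 tested of 31, 6 were higher and 10 lower (median 0.08). Over all genes tested 19.3% were higher and 15.1% lower, so the count of higher members is near the share of all genes. General markers were near level: Cd68 differed by 0.03 (edgeR adjusted p = 0.913), the receptor Csf1r by 0.29 (0.301) and lysozyme Lyz2 by 0.24 (0.296). Adgre1, the F4/80 antigen, read 46.9, 71 and 67.6 normalised CPM in NGS and 45, 41.6, 42.4 and 47.4 in C57BI6 (-0.49 ± 0.14, adjusted p = 0.0254). Its groups overlapped, and the call was lost without NGS replicate 2 (0.112), NGS replicate 3 (0.0806), C57BI6 replicate 2 (0.0641) or C57BI6 replicate 3 (0.0647).

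Several macrophage genes moved strongly in opposite directions. The secreted phosphoprotein Spp1, which tumour cells can also make, read 1200, 884 and 842 normalised CPM in NGS and 4230, 3960, 3270 and 4310 in C57BI6 (2.02 ± 0.15, edgeR adjusted p = 6.5e-06). Apoe, a lipid carrier, read 678, 591 and 824 against 2590, 2000, 2360 and 3620 (1.92 ± 0.20). Arg1, the arginine-degrading enzyme, read 15.7, 18.3 and 14.7 against 106, 25, 146 and 84.1 (2.48 ± 0.50). Genes of resident-type macrophages ran the other way in all 4 C57BI6 libraries. The scavenger receptor Cd163 read 32, 22.5 and 41.9 in NGS and 4.51, 0.981, 4 and 1.59 in C57BI6 (-3.53 ± 0.43), and the mannose receptor Mrc1 read 250, 330 and 362 against 149, 142, 144 and 163 (-1.07 ± 0.13). The folate receptor Folr2 was lower by 1.85 and the hyaluronan receptor Lyve1, also a lymphatic vessel gene, by 2.69 (-1.85 and -2.69).

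Of 17 tested dendritic cell genes of 20, 4 were higher and 1, Flt3, was lower (median 0.53). The shares over all genes tested were 19.3% higher and 15.1% lower. Xcr1, the receptor for Xcl1, read 0.993, 1.98 and 0.916 normalised CPM in NGS and 31.8, 29.4, 36.5 and 46.6 in C57BI6 (4.79 ± 0.29, edgeR adjusted p = 1.75e-06), with no overlap. Other defining genes of the same cross-presenting cells were not called higher. Clec9a gave 4 counts over NGS and 8 over the deeper C57BI6 libraries. Batf3 differed by 0.53 (edgeR adjusted p = 0.268) and Irf8 by -0.04. The growth factor receptor Flt3 read 2.19, 1.98 and 1.83 in NGS and 0.769, 0.218, 0.889 and 0.886 in C57BI6 (-1.53, adjusted p = 0.0438), a call lost without NGS replicate 1, 2 or 3 (0.115, 0.101 and 0.0784) or C57BI6 replicate 1 or 3 (0.0601 and 0.0509).

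Of 14 tested neutrophil genes and CXCR2 ligands of 22 in the list, 8 were higher and 1 lower in C57BI6 (median 1.91). The lower count was 0 without NGS replicate 1 or any 1 of the C57BI6 libraries. Cxcl2, a neutrophil attractant, read 1.39, 0.882 and 1.37 normalised CPM in NGS and 31.4, 42.1, 35.3 and 34.6 in C57BI6 (4.87 ± 0.22, edgeR adjusted p = 2.18e-07), and its relative Cxcl1 was higher by 2.66 ± 0.26. Their receptor Cxcr2 read 10.9, 4.41 and 5.5 against 47, 47.4, 39.5 and 35.6 (2.59 ± 0.27), and Csf3r, the granulocyte colony-stimulating factor receptor, 2.19, 1.1 and 1.6 against 13.4, 13.6, 15.6 and 15.5 (3.14 ± 0.24). None of these overlapped between hosts. Calls of the granule protein genes rested on single libraries: S100a8 was higher by 1.38 (0.029), lost without NGS replicate 3 (0.0666), C57BI6 replicate 2 (0.0624) or C57BI6 replicate 3 (0.0607), and S100a9 was not called (1.03, 0.133) except without NGS replicate 1 (0.00145). The neutrophil marker Ly6g gave 3 and 6 counts over the groups, not scaled to depth.

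Of 23 tested genes of the NF-kB and inflammatory cytokine list, 12 were higher and 1 lower in C57BI6 (median 1.00), and 0 were lower without NGS replicate 2 or 3 or C57BI6 replicate 1, 2 or 3. Nfkbia, the inhibitor that NF-kB itself induces, read 398, 330 and 370 normalised CPM in NGS and 689, 824, 987 and 890 in C57BI6 (1.21 ± 0.13), and the subunit Relb was higher by 1.00 ± 0.12. Chemokines were mixed, with 8 of 21 tested higher and 5 lower (median 0.47), and 3 lower without NGS replicate 2, NGS replicate 3, C57BI6 replicate 3 or C57BI6 replicate 4. Cxcl14, made by skin and stromal cells, read 175, 135 and 149 in NGS and 19.4, 7.3, 27.5 and 18.9 in C57BI6 (-3.06 ± 0.34). Ccl8, a monocyte attractant, read 189, 186 and 274 against 32.7, 6.92, 39.4 and 29.8 (-2.99 ± 0.44). Among 20 Fc receptor and complement genes, 8 were higher and 6 lower (median 0.37). Complement C3 read 48.9, 62.6 and 101 in NGS and 294, 152, 246 and 454 in C57BI6 (2.02 ± 0.36), whereas Serping1, which inhibits the first complement enzymes, read 60, 68.3 and 125 against 27.4, 13.1, 35.6 and 23.6 (-1.76 ± 0.33).

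Mast cell proteases varied within C57BI6. Cma1, a chymase, read 48.7, 23.1 and 25.9 normalised CPM in NGS and 2.64, 18, 4.06 and 2.54 in C57BI6 (-2.25, edgeR adjusted p = 0.0209), with calls lost without NGS replicate 1 (0.0824) or C57BI6 replicate 3 (0.0572). Cpa3, a carboxypeptidase, read 49.5, 21.2 and 22 against 5.39, 26.6, 5.78 and 4.02 (-1.57, adjusted p = 0.0771; 0.000536 without C57BI6 replicate 2). C57BI6 replicate 2 stood with the NGS libraries for both. Of 10 tested genes of mast cells, basophils and eosinophils, 1 was higher and 2 lower (median -0.63), and 7 were lower without C57BI6 replicate 2 and 1 without NGS replicate 1 or C57BI6 replicate 3. The higher count was 0 without any 1 library other than NGS replicate 1.

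Most tested genes of fibroblasts and the matrix were lower in C57BI6. Of 37 tested, 4 were higher and 23 lower (median -0.54), with 19 to 21 lower when 1 library at a time was left out. Lumican, Lum, a collagen-binding proteoglycan, read 40.1, 33.7 and 50.4 normalised CPM in NGS and 11, 7.41, 9.5 and 7.68 in C57BI6 (-2.21 ± 0.18, edgeR adjusted p = 1.45e-05). Acta2, the smooth muscle actin of contractile fibroblasts and pericytes, read 193, 180 and 155 against 32.9, 30.6, 56.4 and 41.1 (-2.13 ± 0.20). Col1a1, a chain of type I collagen, read 1990, 2190 and 2350 against 912, 1020, 894 and 385 (-1.44 ± 0.26). No C57BI6 library reached the lowest NGS value for these 3 genes. Decorin, Dcn, another matrix proteoglycan, ran the other way, at 1690, 1130 and 1140 in NGS and 2440, 2600, 3010 and 3200 in C57BI6 (1.09 ± 0.16).

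Of 28 tested endothelial and pericyte genes of 29, 1 was higher and 10 lower (median -0.39), and 2 were higher without NGS replicate 3 or C57BI6 replicate 2 or 4. The pericyte proteoglycan Cspg4 read 22.4, 23.6 and 21.3 normalised CPM in NGS and 4.34, 6.27, 5.45 and 5.61 in C57BI6 (-2.05 ± 0.16, edgeR adjusted p = 9.21e-06). Ramp2, a receptor-modifying protein of endothelial cells, read 15.7, 15.9 and 19 against 6.21, 5.39, 7.39 and 7.62 (-1.34 ± 0.18, adjusted p = 0.000341), with no overlap. The endothelial adhesion molecules Pecam1 and Cdh5 were not called, at 0.08 (0.593) and -0.15 (0.504).

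Levels of the skin, skeletal muscle and fat lists differed from library to library. Whether this RNA came from tissue beside the tumour or from the tumour itself was not tested. The summed level of the skin list was 2050 normalised CPM in NGS replicate 1, 89.7 and 58.9 in the other NGS libraries and 14 to 17.1 in C57BI6. That of the skeletal muscle list was 907, 12900 and 6060 in NGS and 1840, 146, 113 and 83.6 in C57BI6, and that of the fat list 727, 776 and 2890 against 388, 307, 585 and 477. NGS replicate 1 stood apart for skin, NGS replicates 2 and 3 and C57BI6 replicate 1 for muscle, and NGS replicate 3 for fat. What part such RNA had in the matrix and vessel differences above was not tested. The basal keratin Krt14 read 303, 41.9 and 26.1 in NGS and gave 2 counts over the C57BI6 group.

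Counts of called members in these 3 lists rested on single libraries. Of 24 tested muscle genes 7 were lower and 0 higher (median -3.80), with 22 lower without C57BI6 replicate 1, 11 without NGS replicate 1 and 4 without NGS replicate 2. Of 17 tested fat genes 5 were lower (median -1.91), with 0 lower without NGS replicate 3, 9 without NGS replicate 2, 2 without C57BI6 replicate 1 or 2 and 3 without C57BI6 replicate 3 or 4. Of 25 skin genes 8 passed the filter, through their NGS levels, and 7 were lower, with 4 without NGS replicate 1 and 20 without NGS replicate 3, when more members could be tested. Myh1, a fast muscle myosin, read 52.6, 195 and 167 against 3.41, 3.38, 1.95 and 1.95 normalised CPM (-5.68 ± 0.44). Of 12 tested nerve and Schwann cell genes, 1 was higher and 4 lower (median -0.58). The lower ones numbered 2 without any 1 library other than NGS replicate 2, and the higher ones 0 without NGS replicate 2 or 3 or C57BI6 replicate 1 or 2. Of 10 tested erythrocyte and platelet genes 1 was higher and 0 lower.

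**Figure D4:**
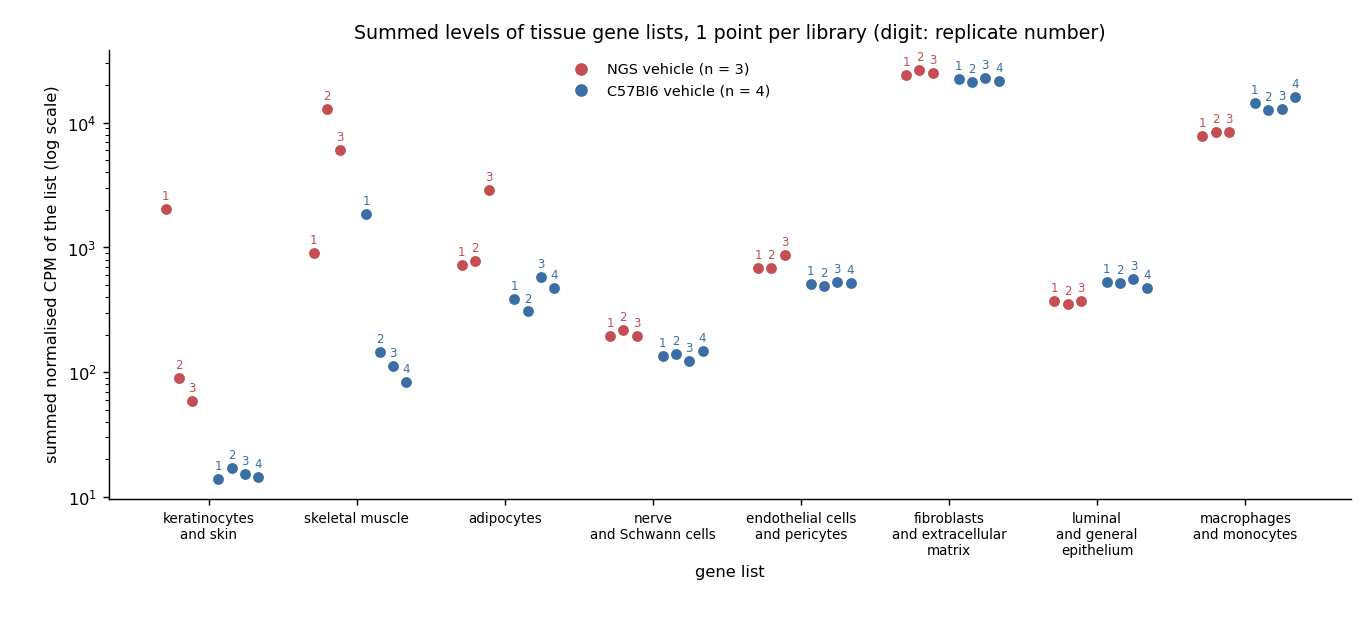
Summed normalised CPM (log axis) of 8 tissue gene lists in each vehicle library, with the replicate number above each point, NGS red and C57BI6 blue. NGS replicate 1 reached 2050 for skin, NGS replicate 2 reached 12900 for muscle and NGS replicate 3 reached 2890 for fat, while macrophage and matrix sums varied little within a host.

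Epithelial markers were uneven. Epcam, the epithelial adhesion marker, gave 35 counts over NGS and 6 over C57BI6 and was not tested. As the C57BI6 libraries were deeper, the gap in level is larger than these counts show. Krt8, a keratin of simple and luminal epithelium, read 177, 227 and 192 normalised CPM in NGS and 339, 322, 366 and 298 in C57BI6 (0.74 ± 0.12, edgeR adjusted p = 0.000982), with no overlap. Its partner Krt18 overlapped and was not called (0.49, adjusted p = 0.191), but was called without NGS replicate 3 (0.00163). The mesenchymal filament Vim was high in both, at 6230, 5210 and 5180 against 4910, 6190, 5620 and 4300 (-0.08, adjusted p = 0.676). Of 13 tested genes of luminal and general epithelium, 3 were higher and 1 lower (median 0.40), with 4 lower without NGS replicate 1 and 2 without NGS replicate 2. Of 23 of the mesenchymal transition list 7 were higher and 5 lower (median -0.05), with 3 lower without C57BI6 replicate 1 or 4.

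A pair of matrix-degrading enzymes were higher in C57BI6. Mmp3, stromelysin, read 297, 178 and 251 normalised CPM in NGS and 3150, 2480, 3030 and 3350 in C57BI6 (3.63 ± 0.19, edgeR adjusted p = 5.83e-07). Mmp13, a collagenase, read 38.9, 21.2 and 26.1 against 187, 146, 202 and 158 (2.59 ± 0.21). The lowest C57BI6 library exceeded the highest NGS library in both. Prrx1, a mesenchymal transcription factor, was lower (-1.52 ± 0.14).

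Of 41 tested proliferation genes, 7 were higher and 7 lower (median -0.03). Over all genes tested 19.3% were higher and 15.1% lower, so both counts are near the shares of all genes. Mki67, the Ki-67 antigen, differed by -0.03 (edgeR adjusted p = 0.917). Cyclin E2, Ccne2, was lower (-1.06) and cyclin B1, Ccnb1, higher (0.73).

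Acss2, the acetate-activating enzyme that the study's inhibitor addresses, was not called, and an overlapping gene makes its level uncertain. It read 4.57, 1.76 and 3.21 normalised CPM in NGS and 2.69, 2.94, 2.45 and 2.19 in C57BI6, and the C57BI6 values lay within the NGS range (-0.31 ± 0.36, edgeR adjusted p = 0.532). Its mitochondrial relative Acss1 read 2.19, 3.53 and 6.41 against 2.03, 1.47, 2.95 and 1.89 (-0.94 ± 0.42, adjusted p = 0.109; 0.0489 without NGS replicate 1). Of 20 tested genes of acetate use and acetyl-CoA supply, 0 were higher and 5 lower (median -0.23), and the lower members numbered 2 without NGS replicate 2 or C57BI6 replicate 2 and 3 without C57BI6 replicate 1. Acacb, the acetyl-CoA carboxylase that limits fat oxidation, read 4.17, 4.41 and 3.21 in NGS and 0.495, 0.163, 0.389 and 0.295 in C57BI6 (-3.51 ± 0.44), with no overlap.

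In glycolysis, 7 of 20 tested genes were higher and 2 lower (median 0.07), and the lower ones numbered 4 without NGS replicate 3 and 1 without any other library but NGS replicate 1. Gapdh read 268, 258 and 196 normalised CPM in NGS and 2480, 2220, 2620 and 2740 in C57BI6 (3.39 ± 0.14, edgeR adjusted p = 1.34e-07). The annotation holds near-identical pseudogene copies of Gapdh and an overlapping gene, so its level depends on how the authors' counting placed shared reads. Slc2a3, the high-affinity glucose transporter GLUT3, read 3.77, 2.87 and 0.687 against 52.8, 51.4, 44.2 and 45.3 (4.27 ± 0.31). Later enzymes of the pathway were not called: Pgk1 differed by -0.30 (0.149; 0.00659 without NGS replicate 3), Ldha by 0.06 (0.663) and Pkm by 0.04 (0.747).

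The remaining lists of metabolism, ribosomes and stress had medians from -0.19 to 0.31, beside 0.01 over all genes tested. Over all genes, 19.3% were higher and 15.1% lower. Shares called lay above these in some lists, among them fatty acid oxidation for lower and hypoxia for higher genes. Oxidative phosphorylation and the TCA cycle had 2 of 52 tested genes higher and 9 lower (median -0.05), with 4 lower without NGS replicate 2. Its higher count was 1 without C57BI6 replicate 1, 2 or 3 and 4 without replicate 4. Fatty acid oxidation and peroxisome genes had 3 of 27 higher and 9 lower (median -0.19), among them Decr1, which reduces unsaturated fatty acyl chains (-1.01 ± 0.11). The lower count was 4 without C57BI6 replicate 1 and 5 without NGS replicate 1 or 3 or C57BI6 replicate 3 or 4. Fatty acid and cholesterol synthesis had 4 of 33 higher and 5 lower (median -0.07), with fatty acid synthase Fasn lower (-0.61). The lower count was 2 without NGS replicate 1 and 3 without NGS replicate 3 or C57BI6 replicate 1, 2 or 4. Of 26 genes of the hypoxia list 9 were higher and 2 lower (median 0.28), of 44 cytosolic ribosomal protein genes 6 were higher and 7 lower (median 0.04), of 31 genes of the integrated stress response and unfolded protein response 7 were higher and 9 lower (median -0.11), and of 27 NRF2 antioxidant genes 8 were higher and 3 lower (median 0.31). The NRF2 counts became 5 higher without NGS replicate 2 or C57BI6 replicate 2 or 3, and 0 and 1 lower without NGS replicates 1 and 2. Of the ribosomal genes 3 were higher without C57BI6 replicate 3, 3 were lower without NGS replicate 2 and 4 without NGS replicate 1 or C57BI6 replicate 1 or 2.

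Of 29 tested immediate early genes of 30, which respond within minutes to growth factors, injury or handling, 15 were higher and 0 lower in C57BI6 (median 0.62), and 8 were higher without NGS replicate 2. Dusp1, a phosphatase that ends MAP kinase signalling, read 71.7, 48.5 and 56.3 normalised CPM in NGS and 322, 372, 320 and 184 in C57BI6 (2.35 ± 0.24). Fos read 18.1, 16.5 and 13.1 against 73.5, 58.9, 114 and 15.6, so C57BI6 replicate 4 lay within the NGS range (2.04, edgeR adjusted p = 0.0162; 0.0559 without NGS replicate 2 and 0.0597 without NGS replicate 3).

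Clock genes moved in both directions, with 5 of 17 tested higher and 6 lower (median -0.37). In the circadian loop Bmal1 and its partner drive the Per genes and Dbp, whose products peak at another time of day. Arntl, the gene of Bmal1, read 4.97, 6.83 and 5.5 normalised CPM in NGS and 11.8, 13.8, 11.3 and 8.45 in C57BI6 (0.98 ± 0.23, edgeR adjusted p = 0.00823). Per2 read 25.2, 21.6 and 24.7 against 7.03, 7.41, 5.06 and 8.98 (-1.74 ± 0.19, adjusted p = 9.99e-05), and Dbp 32.6, 27.3 and 21.1 against 6.48, 8.55, 8.95 and 13.8 (-1.52 ± 0.25). Neither group overlapped the other for these 3 genes. Per3 was lower (-1.32), whereas Per1, which stress signals also induce, was higher (1.09). The labels do not give the time of day at which tumours were taken.

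None of the 10 higher genes with the smallest p-values was in an immune list, although Unc13d, which primes cytotoxic granules for release, was among them (4.53). Snhg14, a long non-coding host transcript of small nucleolar RNAs (mm10 chromosome 7, 59307924 to 59975759, minus strand), read 0.795, 1.32 and 0.916 normalised CPM in NGS and 163, 151, 158 and 146 in C57BI6 (7.25 ± 0.17, edgeR adjusted p = 2.18e-08). It overlaps Ube3a on the other strand, and reads of the pair cannot be told apart without the strand of counting, which is not stated. Chek2, a DNA damage checkpoint kinase, read 9.73, 9.48 and 8.47 against 268, 239, 237 and 260 (4.76 ± 0.12). Vps8, of an endosomal tethering complex, read 32.6, 31.5 and 39.2 against 893, 721, 953 and 1020 (4.70).

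On the lower side, Khdrbs3, an RNA-binding protein, read 36, 41.9 and 33.4 normalised CPM in NGS and 1.37, 1.63, 1 and 1.54 in C57BI6 (-4.73). The imprinted retrotransposon-derived gene Peg10 read 241, 279 and 201 against 24.8, 30.1, 24.1 and 23 (-3.24). Tpm3-rs7, a tropomyosin 3 related sequence, read 188, 203 and 164 against 0.769, 2.78, 3.06 and 3.48 (-6.20), while Tpm3 itself differed by 0.16 and was not called. Ifi202b, an interferon-inducible gene known to differ between mouse strains, read 18.9, 21.4 and 23.6 in NGS and gave 1 count over the C57BI6 group. These genes were picked for the smallest p and no overlap, so a wide gap with little spread within a host follows from the choice.

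Among the largest fold changes, Tmprss11a, a transmembrane serine protease, read 0 in NGS and 106, 40.3, 106 and 170 normalised CPM in C57BI6, at least 485-fold higher. The steroid enzyme gene Hsd3b2 and the olfactory receptor gene Olfr1152 were absent from NGS too, at least 199-fold and 193-fold higher. On the lower side the albumin gene Alb read 27.4, 14.3 and 27.5 in NGS and 0, 0.0545, 0.111 and 0.65 in C57BI6 (-6.80).

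A larger share of pseudogenes than of coding genes was called. Of 13259 protein-coding genes tested, 17.2% were higher and 15.5% lower, and of 596 pseudogenes 30.9% were higher and 30.2% lower. The 2205 genes of other types, such as non-coding RNAs, were more one-sided, with 28.9% higher and 8.57% lower. Counted as absent were genes with 3 counts or fewer in a group and a mean of 10 CPM or more in the other. In that sense 132 genes were absent from NGS, 25 of them protein-coding by the annotation's gene type. From C57BI6 17 were absent, 4 of them protein-coding by that type, including Rpl9-ps6, which is named as a processed copy. The 3 counts are a stricter limit at the depth of C57BI6. With the NGS limit of 0.215 CPM applied to both hosts, 31 genes were absent from C57BI6, 7 of them protein-coding by that type. Processed copies of other genes, named with the suffix ps, could be set beside the parent gene. Of 131 tested genes with that suffix, 27 were higher and 59 lower. For 73 of those called the parent was tested too. The parent was not called for 43, called in the same direction for 15 and in the opposite direction for 15. Rpl9-ps6 read 104, 108 and 113 normalised CPM in NGS and 0 in all C57BI6 libraries, while its parent Rpl9 differed by 0.00 (edgeR adjusted p = 0.988). Rpl34-ps1 read 114, 119 and 159 against 0 in all, and Rpl34 differed by 0.18. Reads of such copies cannot be told from those of the parent or of other copies where the sequences are the same, so these values are uncertain.

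The share of called genes varied by chromosome. On chromosome 10, 31.6% of tested genes were higher and 6.96% lower, on chromosome 4 these were 11% and 27.6%, and on the X chromosome 11.2% and 32.5%. Over protein-coding genes with a mean of 5 CPM or more, the median log2 fold change was 0.23 on chromosome 10, 0.21 on chromosome 6 and 0.19 on chromosome 14, and it was -0.23 on chromosome 4 and -0.20 on the X chromosome, against 0.02 over all 10190 such genes. In the ACSS2i libraries, none of which are shared, the medians were 0.30 for chromosome 10, 0.21 for 6, 0.28 for 14, -0.08 for 4 and -0.13 for X.

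**Figure D5:**
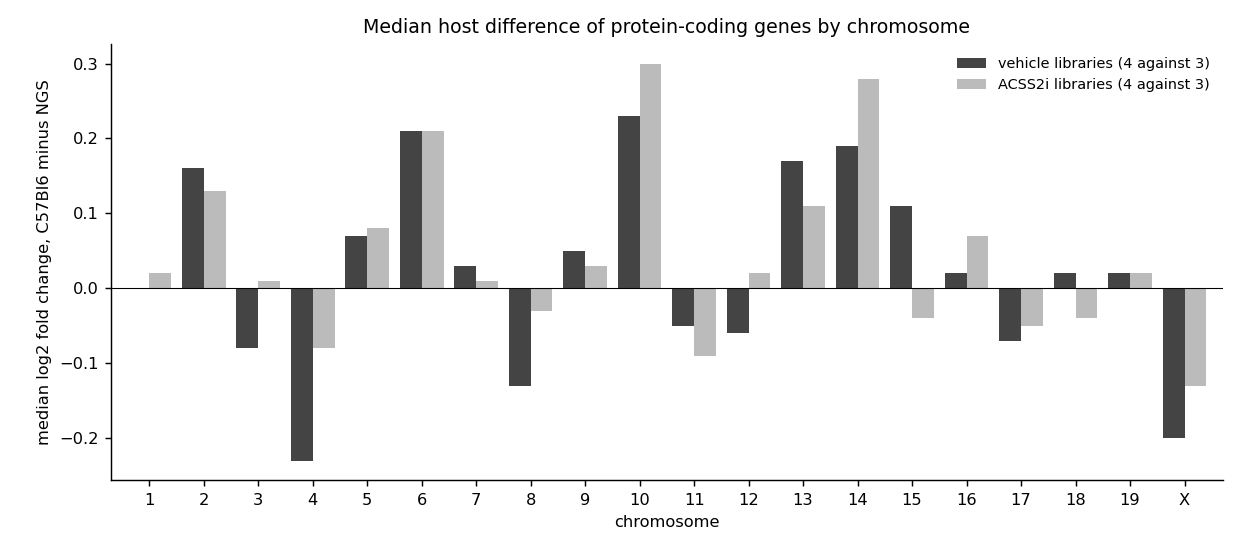
Median log2 fold change (C57BI6 minus NGS) of protein-coding genes with a mean of 5 CPM or more on each chromosome, in vehicle and in ACSS2i libraries. Chromosome 10 had the highest vehicle median, 0.23, and chromosome 4 the lowest, -0.23.

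The same hosts were also compared in tumours given ACSS2i, an inhibitor of ACSS2, in 4 C57BI6 and 3 NGS libraries that the vehicle contrast did not use. There 3413 of 16141 genes were higher (21.1%) and 2601 lower (16.1%). Of the 3098 genes higher in vehicle tumours, 3058 were tested, 2959 had the same sign and 2254 were called in the same direction, which is 72.8% of the vehicle list and 66.0% of the ACSS2i list. Of the 2430 lower, 2274 were tested, 2033 had the same sign and 1349 were called lower, 55.5% and 51.9% of the lists, and 2 and 8 genes were called in the opposite direction. Genes without an NGS count in either treatment could hardly be called in the opposite direction. Depth followed the host here as well.

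Of 147 genes examined singly and called in vehicle tumours, 127 were called in the same direction in ACSS2i tumours, 20 were not called and 0 were called in the opposite direction. Many were picked for a small p in vehicle tumours, so these counts do not stand for all genes. Some, such as Gzmc, Themis, Xcl1 and Jchain, had no NGS count in either treatment and could hardly be called in the opposite direction. Among those not called were Myh1 (0.58, adjusted p = 0.805), Cma1 (-0.21, 0.875), Ikzf2 (-0.48, 0.219) and Fcer2a (1.6, 0.0897). The interaction adjusted p of these 4 was 0.235 to 0.456, so a difference between treatments was not called. In ACSS2i tumours the log2 fold change was 2.52 for Il2rg, 2.24 for Cd8b1, 6.04 for Xcr1 and 6.43 for Csf3r. It was 1.40 for B2m, 2.15 for H2-K1 and 2.36 for H2-T23, and 0.73 for Gbp3 (edgeR adjusted p = 0.0599). It was -1.61 for Lum, -2.68 for Acta2, 2.32 for Mmp3, 1.12 for Arntl and -1.2 for Per2.

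The difference of the host contrast between treatments was tested as an interaction over all 14 libraries, and 3 of 17294 genes passed (0.0173%). An unadjusted p under 0.05 was reached by 2383, which is more than a share of 0.05 of the genes tested. That only 3 passed therefore does not show that the contrast was otherwise alike in both treatments. The count of genes that passed was 62 without NGS ACSS2i replicate 1. It was 1 without NGS vehicle replicate 3, NGS ACSS2i replicate 2 or 3, C57BI6 vehicle replicate 1, 3 or 4, or C57BI6 ACSS2i replicate 1 or 2. Pfn2, a profilin that binds actin monomers, read 14.3, 18.3 and 13.7 normalised CPM in NGS vehicle tumours and 4.51, 3.76, 2.95 and 4.19 in C57BI6, whereas NGS ACSS2i tumours read 3.56, 4.75 and 4.97 (interaction 2.07 ± 0.30, edgeR adjusted p = 0.0394). Serpinb1a, an inhibitor of neutrophil proteases, read 39.5, 41.2 and 40.5 in NGS vehicle and 18.5, 22, 16.6 and 17 in C57BI6 vehicle tumours. In ACSS2i tumours it read 17.5, 11.9 and 13.7 in NGS and 21.1, 24.8, 34.9 and 18.9 in C57BI6 (interaction 1.91 ± 0.28, adjusted p = 0.0394). The host order of Serpinb1a was thus opposite in the 2 treatments. Amd-ps3, a processed copy, read 90.4, 102 and 46.7 in NGS vehicle and 0, 0 and 0.947 in NGS ACSS2i tumours, with 53.1 to 110 in all C57BI6 libraries (interaction 7.62 ± 0.74, adjusted p = 0.000722).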

How the data were processed

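Bulk tumour RNA was read at the 3' end of polyadenylated transcripts, per the labels' protocols. The deposited table holds raw counts per gene for 51789 genes. The tools named in the submitters' processing notes are RSEM 1.2.3 and DESeq2, on build mm10, without the role of each. Not given in the sources used here are the aligner, the annotation release and the strand of counting. If the counts began as RSEM estimates, the authors rounded them. GENCODE M21 matched 51596 gene identifiers, and mitochondrial genes are not in the table.

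Here the counts of the 7 vehicle libraries were filtered with filterByExpr, scaled by TMM and tested with edgeR 4.0.16 (quasi-likelihood, two-sided, Benjamini-Hochberg adjusted p under 0.05; R 4.3.3). The common biological coefficient of variation was 0.209. Genes without a count in a group are given as lower bounds from 3 counts, with counting intervals of 95% where a group held 1 to 3; both cover counting error only, since no molecular identifiers are described. Chi-square per degree of freedom between libraries of a group was 9.14 to 25.2, where counting error alone gives about 1, so none was counted as a repeat deposit. The ACSS2i libraries were fitted separately, and the interaction over all 14. Alternatives were other size factors and filters, DESeq2 1.42.0, limma 3.58.1 voom, thinning to equal depth, a replicate block and leaving out each library.

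The contrast, the 37 gene lists and the naming rule were chosen with earlier results of these data known. The rule names the 10 genes with the smallest p and the 8 with the largest fold change in each direction, without predicted genes, clones and pseudogenes, up to 4 members of each list with the smallest p, and a fixed set of markers. Not every gene it picks is described, and other list members and the retrocopies were named after their values were seen. The method was tested on simulated data.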

Additional observations from a re-analysis of the deposited data

Results flagged for a closer look

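Within the C57BI6 vehicle group, values of 1 library lay far from the other 3 for 11 genes and 3 summed lists, out of 212 groups examined; chance alone gives such a gap in about 1 in 20 groups. The measure is the gap to the nearest library divided by the group's range. C57BI6 replicate 1 stood highest for H2-DMb1 (0.863; 38.7 normalised CPM, next 20.4), H2-Aa (0.831; 361, next 143), Klrc1 (0.841; 6.32, next 3.89), Mki67 (0.845; 180, next 133) and the summed skeletal muscle list (0.965; 1840, next 146). C57BI6 replicate 2 stood highest for the mast cell genes Cpa3 (0.922; 26.6, next 5.78) and Cma1 (0.902; 18.0, next 4.06) and for the sum of the mast cell, basophil and eosinophil list (0.92; 195, next 51.8), and lowest for H2-D1 (0.852; 1120, next 1470). C57BI6 replicate 3 stood highest for Ebf1 (0.873; 50.5, next 37.2) and the summed NK and cytotoxic list (0.834; 117, next 98.2), and replicate 4 for Tnf (0.883; 6.02, next 2.2). For Krt14 and Ifi202b the measure was 1.0 because a single C57BI6 library held the group's only counts, at 0.118 and 0.0556 normalised CPM.

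The host difference differed between ACSS2i and vehicle tumours for 3 genes in the interaction test, by 2.07 for Pfn2, 1.91 for Serpinb1a and 7.62 for Amd-ps3 on the log2 scale. For Amd-ps3 the levels in NGS ACSS2i tumours were 0, 0 and 0.947 normalised CPM, while the other 3 groups lay between 46.7 and 110.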

How the results depend on the processing

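The 3098 genes higher and 2430 lower in C57BI6 became 2051 higher with a filter at a mean of 5 CPM, and 1124 higher and 551 lower in a test for more than 2-fold change, both of which set a stricter criterion. Leaving out 1 library at a time gave 2430 to 3184 higher and 1810 to 2218 lower genes. Thinning to equal depth gave 2227 and 1965, DESeq2 3272 and 2576, upper quartile scaling 2735 and 2863, and protein-coding genes alone, an alternative chosen after seeing the data, 2258 and 2033. The median over all genes was 0.01 with TMM, -0.05 with upper quartile scaling and -0.121 unscaled. Replicate numbers did not pair the libraries: deviations of equal numbers correlated at -0.212, -0.0319 and 0.00883, other pairs at -0.108 to 0.184. With a replicate block 2186 genes were higher and 1356 lower, 3644 were called in the ACSS2i tumours, and 2 in the interaction. The ACSS2i count of 6014 ran from 4474 to 6481 with 1 library left out, and the interaction count of 3 from 1 to 62; without a filter on low counts it was 7. Of 3073 values of named genes under the alternatives, 2896 kept their direction and side of the threshold, 168 fell short of it, 9 newly passed and 0 changed sign while called. Depth limits the NGS libraries most: a gene with no count there may reach 0.215 CPM. The cause of the other changes was not tested.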

Other observations

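Stress and antioxidant genes differed gene by gene between the hosts. Manf, a growth factor of the endoplasmic reticulum stress response, was lower in C57BI6 (log2 fold change -0.91 ± 0.10), whereas the stress-induced regulator Nupr1 (1.27 ± 0.14), the transcription factor Atf4 (0.82) and the cystine transporter subunit Slc7a11 (2.78 ± 0.39) were higher. Fth1, the ferritin heavy chain, was higher by 0.89. All 5 passed edgeR's adjusted threshold.

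Y chromosome genes were read unevenly. Ddx3y and Uty gave 15 and 13 counts in NGS replicate 3 and 0 in the other NGS libraries, and 2 and 0 counts over the C57BI6 vehicle group. Kdm5d gave 4 counts in NGS replicate 3 and 19, 17, 7 and 9 in C57BI6 replicates 1 to 4. Scaled to depth these were 0.916 normalised CPM against 1.04, 0.926, 0.389 and 0.532. Xist, the non-coding RNA of the inactive X chromosome, read 423, 402 and 156 normalised CPM in NGS and 409, 402, 352 and 479 in C57BI6.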
